A study of Mus musculus with 12 samples.

Results

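The naive pluripotency transcription factors examined here are *Nanog*, *Esrrb*, *Klf2*, *Klf4*, *Klf5*, *Tfcp2l1*, *Tbx3*, *Prdm14*, *Nr5a2* and *Zfp42*, 10 of the 57180 genes in the quantification. They were picked by symbol, with earlier results of these data known, and all 10 were among the 25446 genes tested, that is, genes with at least 10 counts over all libraries. RNA-seq libraries came from the mouse ESC line E14 carrying a doxycycline-inducible CRISPRi system, in which a catalytically dead Cas9 fused to repressor domains silences the genes its guides point to. The Neg line carries scrambled guides, and the 3×KD line carries guides against *Pcx*, *Me1* and *Me2*, the genes of pyruvate carboxylase and of the cytosolic and a mitochondrial malic enzyme. Per the study's methods, ESCs were kept in N2B27 medium with inhibitors of MEK and GSK3 and with LIF, and EpiLCs were made from them with Fgf2, activin A and a tankyrase inhibitor and taken at day 2, with doxycycline given to both lines. Each of the 4 groups (Neg ESCs, 3×KD ESCs, Neg EpiLCs, 3×KD EpiLCs) had 3 libraries. The CRISPRi parent was 1 selected clone and each arm is 1 guide-carrying line derived from it, so that effects of the guides and differences between the lines cannot be told apart, and nothing in the labels ties the 3 libraries of a group to separate derivations: the p-values measure the spread between these libraries only.

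These factors sit at the centre of the naive network, the gene circuit that holds mouse ESCs in a state like the preimplantation epiblast. LIF, acting through STAT3, feeds *Klf4* and *Tfcp2l1*. Inhibition of GSK3 relieves repression by TCF7L1 at genes such as *Esrrb*, and inhibition of MEK keeps FGF-ERK signalling from shutting the network down. When the signals are withdrawn the factors are silenced and the cells pass to the formative state, which EpiLCs model and in which genes such as *Otx2* and *Fgf5* are switched on.

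The 10 protein-coding genes are placed on GRCm39 by the GENCODE vM39 annotation. *Nanog* lies at chr6:122679780-122691601 (plus strand) and *Zfp42* at chr8:43743871-43760152 (minus strand). The orphan nuclear receptor genes are *Esrrb* at chr12:86407887-86568409 (plus strand) and *Nr5a2* at chr1:136770303-136888186 (minus strand). The Krüppel-like factor genes are *Klf2* at chr8:73072726-73075502 (plus strand), *Klf4* at chr4:55527139-55532528 (minus strand) and *Klf5* at chr14:99536086-99552473 (plus strand). *Tfcp2l1* lies at chr1:118555636-118612915 (plus strand), *Tbx3* at chr5:119806298-119822797 (plus strand) and *Prdm14* at chr1:13183405-13198351 (minus strand).

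The sequence upstream of the transcription start is shown for 4 of the factors: *Nanog*, *Esrrb* and *Tfcp2l1*, which were higher in 3×KD than in Neg EpiLCs, and *Zfp42*, which had one of the largest losses in 3×KD ESCs. The stretches come from RefSeq promoter windows (250 bases before to 50 after a start, GRCm38.p6), which held 7 of the 10 genes (not *Klf5*, *Tbx3* and *Prdm14*), and were placed on GRCm39 by exact match. They end at the start of the transcript that carries most of the gene's reads, except for *Nanog*, for which 30 bases are given. Capitals mark matches on either strand to 5 short motifs: AAGGTCA (the extended core site of orphan nuclear receptors such as ESRRB and NR5A2), CCACCC (a KLF box), TTCNNNGAA (a STAT site), ATGCAAA (part of the octamer bound by OCT4) and CATTGT (a SOX box).
*Nanog*, chr6:122684365-122684394, plus strand, with the octamer and SOX matches next to each other: cagcttctTTTGCATtACAATGtccatggt
*Esrrb*, chr12:86468168-86468417, plus strand, with 1 KLF box: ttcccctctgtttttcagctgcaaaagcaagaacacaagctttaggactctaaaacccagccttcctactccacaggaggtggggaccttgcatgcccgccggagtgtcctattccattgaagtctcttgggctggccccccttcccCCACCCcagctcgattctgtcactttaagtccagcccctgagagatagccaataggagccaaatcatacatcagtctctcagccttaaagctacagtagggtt
*Tfcp2l1*, chr1:118555425-118555635, plus strand, with no match: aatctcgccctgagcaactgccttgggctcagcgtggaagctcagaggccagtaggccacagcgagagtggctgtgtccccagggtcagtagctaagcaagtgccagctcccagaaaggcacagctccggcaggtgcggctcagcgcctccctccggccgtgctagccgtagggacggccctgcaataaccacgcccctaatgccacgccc
*Zfp42*, chr8:43760153-43760296, minus strand, with 1 octamer match and 2 KLF boxes: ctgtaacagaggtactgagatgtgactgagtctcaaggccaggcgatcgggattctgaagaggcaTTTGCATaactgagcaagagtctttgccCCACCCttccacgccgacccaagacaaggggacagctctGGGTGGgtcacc

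Over the full windows, a KLF box was found in 5 of the 7 genes with a window, the octamer part and the SOX box in 2 each, the STAT site in 1 and the nuclear receptor site in 0. Among all 32851 windows of the table, 31.5% held the KLF box, 12.6% the SOX box, 8.3% the STAT site, 4.72% the nuclear receptor site and 4.63% the octamer part. The 7 genes had 10 windows (*Nanog*, *Esrrb* and *Nr5a2* had 2 each), so that counts per gene and shares per window are not alike. A match describes these letters only and says nothing of binding. None of the 7 guides of the Neg and 3×KD lines had a site with an NGG next to it and fewer than 5 mismatches within 1000 bases of an annotated start of any of the 10 genes.

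Library totals lay between 11221023 and 19652197 estimated counts. *Pcx*, *Me1* and *Me2* were lower in each 3×KD library than in any Neg library of that state, and their log2 fold changes lay between −1.14 and −0.89 in ESCs and between −1.05 and −0.98 in EpiLCs. The state markers followed the titles of the libraries: all 8 formative markers (*Fgf5*, *Otx2*, *Pou3f1*, *Dnmt3a*, *Dnmt3b*, *Zic2*, *Sox3*, *Sall2*) were called higher in Neg EpiLCs than in Neg ESCs, whereas the labels' cell type entry, which is the same for all libraries of a line, was not used. Of the 25446 genes tested, 2489 were called higher in Neg EpiLCs than in Neg ESCs. Summed CPM (read counts scaled to the library total with TMM factors) of 7 primitive endoderm markers lay between 22.4 and 33.1 in all groups and that of 4 fibroblast markers between 3.82 and 8.56. Single primitive endoderm markers moved within that sum: 2 were called higher in 3×KD ESCs and 2 lower in 3×KD EpiLCs. Of all genes tested, 8.5% were called higher in 3×KD ESCs and 5.35% lower in 3×KD EpiLCs. The 5 2-cell-like markers summed to between 368 and 439 CPM in the Neg and 3×KD ESCs and Neg EpiLCs, and to between 792 and 848 CPM in 3×KD EpiLCs. That sum rested mostly on *Zscan4c*, *Zscan4d* and *Zscan4f*, with means of 143, 144 and 488 CPM in 3×KD EpiLCs. Mesoderm markers (4 genes) had group medians of 20.5 to 27.7 CPM. Neuroectoderm markers (3 genes) summed to between 68.3 and 70.9 CPM in Neg EpiLCs and between 23.3 and 27.6 CPM in 3×KD EpiLCs, and trophoblast markers (4 genes) to between 41.7 and 53.7 CPM in ESCs and at most 10.2 CPM in EpiLCs. Each of the mesoderm, neuroectoderm and trophoblast sums rested mostly on 1 gene: *Eomes* (mean 23.6 CPM in Neg ESCs), *Sox1* (65.2 CPM in Neg EpiLCs) and *Tfap2c* (38.8 CPM in Neg ESCs). Their other markers had group means of at most 3.68 CPM. No marker of any list in this paragraph was at 0 in all libraries of a group, and the part of such cells in the results below was not tested.

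In ESCs the 10 factors together took 0.567% to 0.590% of all counts in the Neg libraries and 0.425% to 0.434% in the 3×KD libraries. In EpiLCs the order turned: 0.0451% to 0.0481% in Neg and 0.0587% to 0.0619% in 3×KD libraries. The summed share was thus lower in 3×KD ESCs and higher in 3×KD EpiLCs than in the Neg cells of the same state, with no overlap of libraries in either. In bulk RNA, fewer cells of a type and less RNA per cell cannot be told apart.

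**Figure D1:**
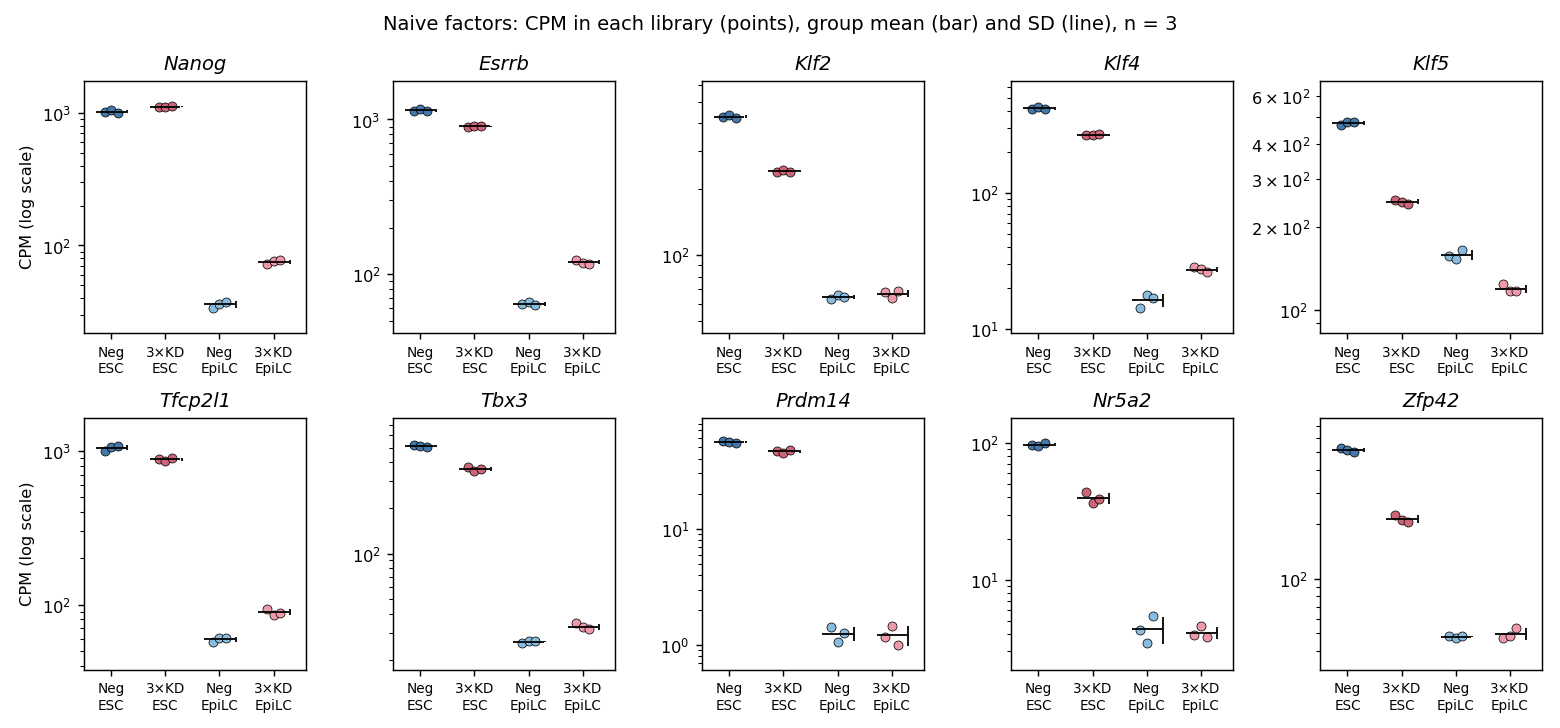
CPM (log scale) of each naive factor in the 12 libraries, one panel per gene. Points are libraries, bars the group mean and lines the SD (n = 3); in ESCs the 3×KD points lie below the Neg points for every gene but *Nanog*, whereas in EpiLCs they lie above them for *Nanog*, *Esrrb*, *Klf4*, *Tfcp2l1* and *Tbx3*.

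Between genes, levels were compared as TPM, which is scaled by transcript length. In Neg ESCs *Nanog* was the most abundant factor at 327 ± 66.4 TPM (SD, n = 3), and *Nr5a2* (21.4 ± 4.13 TPM) and *Prdm14* (15.0 ± 2.72 TPM) were the least. Between them *Zfp42*, *Esrrb* and *Klf2* followed one another with overlapping ranges (213, 209 and 169 TPM), as did *Tbx3*, *Klf4*, *Klf5* and *Tfcp2l1* (between 105 and 76.1 TPM). In 3×KD ESCs *Nanog* stood at 327 ± 35.8 TPM and *Esrrb*, at 156 TPM, had no neighbour within its range, while *Zfp42* stood at 81.3 TPM, overlapping *Klf2*, and *Nr5a2* moved to the last place.
In Neg EpiLCs the order was another one: *Klf5* (38.5 TPM), *Klf2* (30.4 TPM) and *Zfp42* (23.6 TPM) led with separate ranges, *Nanog* and *Esrrb* overlapped at 13.8 and 13.7 TPM, and *Prdm14* was last at 0.404 TPM. In 3×KD EpiLCs the leading 5 genes, *Klf2*, *Klf5*, *Nanog*, *Esrrb* and *Zfp42*, lay between 27.7 and 21.5 TPM and each overlapped the next. Ranges over libraries hide some orders that held within every library of a group. These included *Esrrb* above *Klf2*, *Tbx3* above *Klf4* and *Klf5* above *Tfcp2l1* in Neg ESCs, and *Tbx3* above *Klf4* and *Tfcp2l1* in Neg EpiLCs. The same held for *Klf2* above *Zfp42* in 3×KD ESCs and for *Klf2* above *Klf5* in 3×KD EpiLCs. One Neg ESC library had higher TPM for all of the factors than the other two, which was not so in CPM, and TPM were therefore not used to compare groups.

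**Figure D2:**
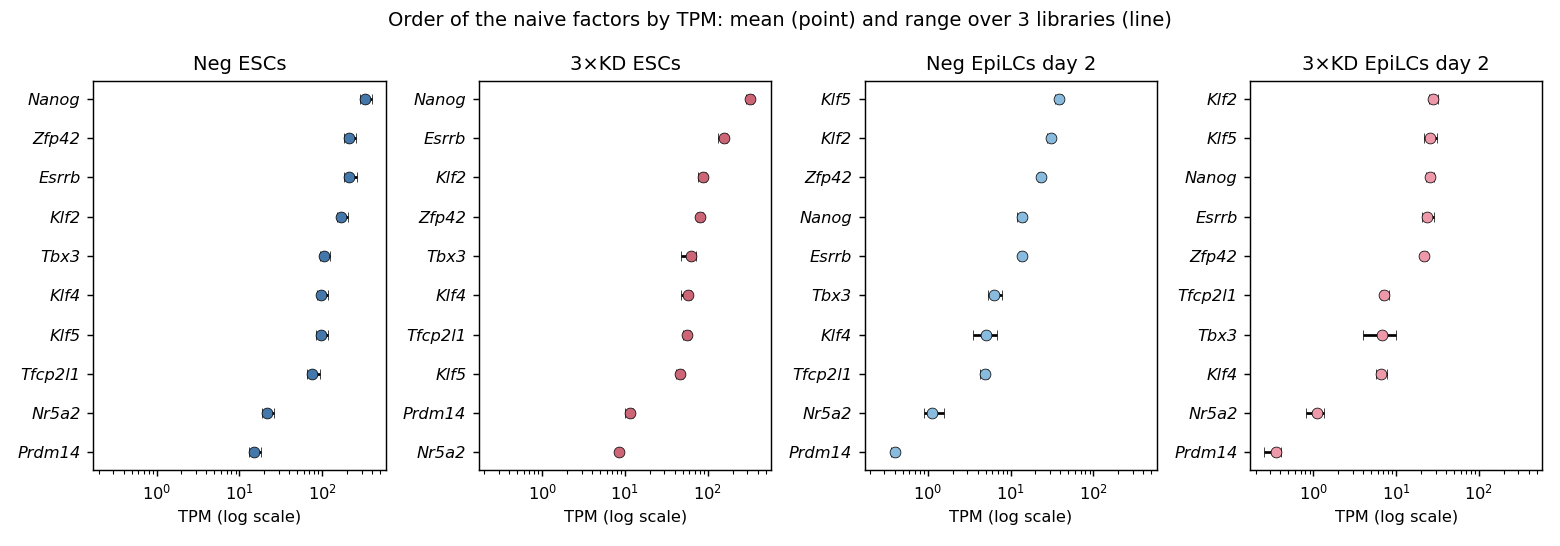
TPM (log scale) of the naive factors in each of the 4 groups, ordered by the group mean. Points are means and lines the range over 3 libraries; *Nanog* leads in both ESC groups, *Klf5* in Neg EpiLCs, and 5 genes overlap at the top in 3×KD EpiLCs.

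The first comparison, EpiLCs against ESCs within each line, asks how far the naive factors were silenced by day 2. In Neg cells all 10 fell, from *Prdm14* (log2 fold change −5.45 ± 0.09 SE), a PR domain protein that represses FGF receptor signalling and DNA methylation genes, to *Klf5* (−1.59 ± 0.04 SE). A gene was called where edgeR's quasi-likelihood test gave a Benjamini-Hochberg adjusted p under 0.01 with a log2 fold change beyond ±0.58. Of all genes tested, 11% were called lower, and the median log2 fold change was −4.22 over the 10 factors. In 3×KD cells all 10 fell as well, with a median of −3.29, beside 9.32% of all genes tested. The share of the ESC level left at day 2 was below 6% in Neg cells for *Prdm14* (2.26%), *Nanog* (3.53%), *Klf4* (3.87%), *Nr5a2* (4.45%), *Tbx3* (5.13%), *Tfcp2l1* (5.61%) and *Esrrb* (5.62%), and higher for *Zfp42* (9.29%), *Klf2* (15.1%) and *Klf5* (33.3%). In 3×KD cells every factor kept a larger share of its own ESC level than in Neg cells: *Prdm14* 2.63%, *Nanog* 6.82%, *Tbx3* 9.16%, *Tfcp2l1* 10.1%, *Klf4* 10.2%, *Nr5a2* 10.3%, *Esrrb* 13.2%, *Zfp42* 23.2%, *Klf2* 27.6% and *Klf5* 48.4%. For *Prdm14* this gap between the lines did not pass edgeR's interaction test, given below (0.21 ± 0.18 SE on the log2 scale, adjusted p = 0.69). Of the 25446 genes tested, 12698 had a value above 0 for the step in 3×KD minus that in Neg. The same 3 genes, *Klf5*, *Klf2* and *Zfp42*, were the ones that fell least in both lines. A share of a lower starting level and a higher final level both raise this percentage, and the values of each state below show which applied to which gene.

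**Figure D3:**
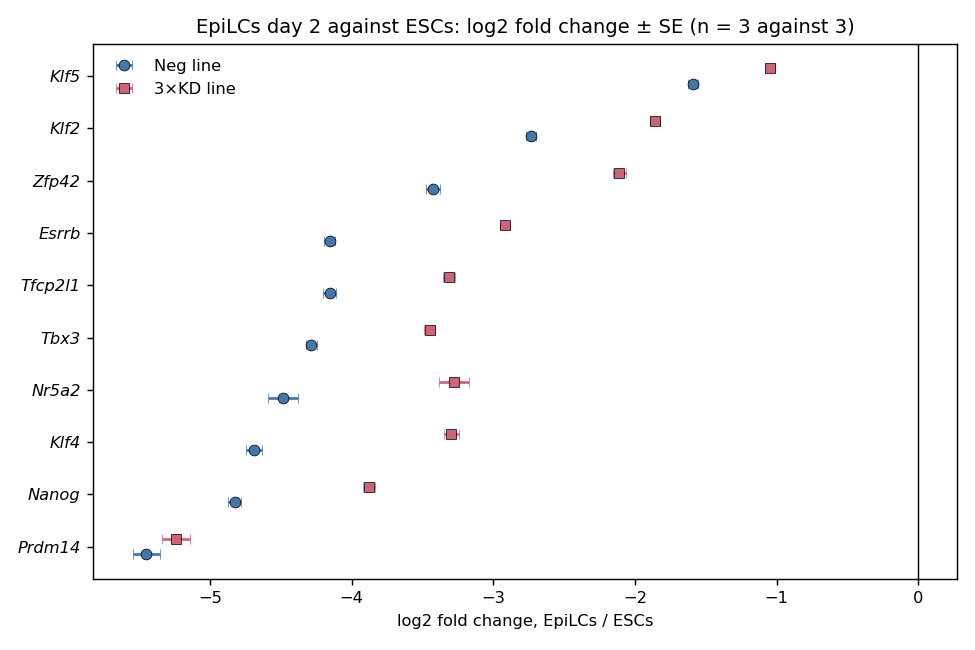
Log2 fold change of EpiLCs day 2 against ESCs for each naive factor, in the Neg line (circles) and the 3×KD line (squares), with SE bars (n = 3 against 3). All values are below 0, and the 3×KD value is the nearer to 0 for each gene, with *Prdm14* (−5.45 and −5.24) showing the smallest gap.

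The second comparison, 3×KD against Neg in ESCs, asks what the line with the knockdown had lost while still held in naive medium. *Nr5a2*, *Zfp42*, *Klf5*, *Klf2* and *Klf4* fell (5 of 10 called lower; 6.76% of all genes tested were called lower), and 0 were called higher (8.5% of all genes tested). At an unadjusted p under 0.05, 1 was higher and 9 were lower, and DESeq2 called 0 higher and 5 lower. The median log2 fold change was −0.58 over the 10 factors and 0.03 over all genes tested. For 9 of the 10 genes the 3 libraries of 3×KD all lay below those of Neg, an arrangement that 23.8% of all genes tested also had.

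The orphan nuclear receptor genes *Nr5a2* and *Esrrb* were affected to different degrees in ESCs. *Nr5a2*, whose product can stand in for OCT4 in reprogramming, measured 97.2, 96.0 and 99.7 CPM in the Neg ESC libraries and 43.7, 36.5 and 38.7 CPM in the 3×KD ESC libraries. This was the largest loss among the factors, to 40.6% of the Neg level (log2 fold change −1.30 ± 0.08 SE, adjusted p = 1.5e-09). *Esrrb*, a direct target of the TCF7L1 repressor, measured 1139, 1177 and 1126 CPM in Neg ESCs and 898, 904 and 912 CPM in 3×KD ESCs. Its groups did not overlap and its adjusted p was 2.5e-07, but its log2 fold change of −0.34 ± 0.03 SE stayed under the limit of 0.58.

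The 3 Krüppel-like factor genes, which act redundantly in ESC self-renewal, fell together in ESCs. *Klf5* measured 468, 483 and 480.4 CPM in Neg ESCs and 252, 247 and 242 CPM in 3×KD ESCs (log2 fold change −0.95 ± 0.04 SE). *Klf2* measured 428, 436 and 425 CPM in Neg ESCs and 240.5, 245 and 241 CPM in 3×KD ESCs (−0.83 ± 0.03 SE). *Klf4*, the STAT3 target of the 3, had the smallest loss of them, from 415, 431 and 409.9 CPM in Neg ESCs to 264, 266 and 271 CPM in 3×KD ESCs (−0.65 ± 0.04 SE). Their 3×KD ESC means were 51.8%, 56.4% and 63.8% of the Neg ESC means, and the adjusted p-values were 6.9e-12, 9.5e-12 and 3.9e-09.

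*Zfp42*, which encodes REX1 and is widely used as a reporter of the naive state, measured 528, 518 and 501 CPM in Neg ESCs and 226, 212 and 206 CPM in 3×KD ESCs. This was a fall to 41.6% of the Neg level (log2 fold change −1.27 ± 0.04 SE, adjusted p = 2.6e-12). The pseudogene *Zfp42-ps1* carries similar sequence and was assigned 66.4, 67.8 and 64.8 CPM in Neg ESCs and 26.8, 24.7 and 27.3 CPM in 3×KD ESCs, so that the division of reads between the copies is uncertain. With the counts of both copies summed, an alternative added after seeing the data, the log2 fold change of *Zfp42* in ESCs was −1.24.

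None of the remaining factors was called in ESCs. *Tbx3*, a T-box factor downstream of LIF and PI3K signalling, measured 519.6, 513 and 502 CPM in Neg ESCs and 371, 349.9 and 360.4 CPM in 3×KD ESCs (log2 fold change −0.51 ± 0.03 SE). *Tfcp2l1*, a grainyhead-like factor and STAT3 target, measured 1009, 1075 and 1086 CPM in Neg ESCs and 886, 864 and 903 CPM in 3×KD ESCs (−0.26 ± 0.04 SE). *Prdm14* measured 56.1, 55.7 and 54.1 CPM in Neg ESCs and 46.3, 44.9 and 47.4 CPM in 3×KD ESCs (−0.26 ± 0.06 SE). All 3 had an adjusted p under 0.01 and groups that did not overlap, with a size under the fold limit. *Nanog*, the homeobox factor that lets ESCs self-renew without LIF when overexpressed, was the only one of the 10 that stood higher in every 3×KD ESC library: 1106, 1099 and 1121 CPM, beside 1015, 1052 and 993 CPM in Neg ESCs. The difference was small (log2 fold change 0.12 ± 0.04 SE) and did not pass the test (adjusted p = 0.015).

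The third comparison, 3×KD against Neg in EpiLCs, asks what remained of the naive network after 2 days of induction. *Nanog*, *Esrrb*, *Klf4* and *Tfcp2l1* were higher in 3×KD EpiLCs (4 of 10 called; 7.88% of all genes tested were called higher), and 0 were called lower (5.35% of all genes tested). At an unadjusted p under 0.05, 5 were higher and 1 was lower, and DESeq2 called 4 higher and 0 lower. The median log2 fold change was 0.19 over the 10 factors and 0.03 over all genes tested. Over all genes tested, 24.1% had every 3×KD EpiLC library above every Neg EpiLC library and 23.1% had every one below.

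*Nanog* had the largest difference in EpiLCs. It measured 33.9, 36.2 and 37.8 CPM in Neg EpiLCs and 72.9, 75.9 and 77.9 CPM in 3×KD EpiLCs, 2.10-fold higher (log2 fold change 1.07 ± 0.04 SE, adjusted p = 2.3e-11). *Esrrb* followed, with 64.3, 66.3 and 62.8 CPM in Neg EpiLCs and 124, 119 and 116 CPM in 3×KD EpiLCs (0.89 ± 0.04 SE, adjusted p = 2.1e-11). In neither gene did the groups overlap, and both had fallen far below their ESC levels in the 2 lines alike.

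*Klf4* and *Tfcp2l1*, both known STAT3 targets, were also higher in EpiLCs, by smaller amounts. *Klf4* measured 14.3, 17.5 and 16.8 CPM in Neg EpiLCs and 28.2, 27.3 and 26.1 CPM in 3×KD EpiLCs (log2 fold change 0.75 ± 0.06 SE, adjusted p = 4.8e-08). With transcript-length offsets, as the study's import of the counts would give, *Klf4* no longer passed (log2 fold change 0.57, adjusted p = 0.011). *Tfcp2l1* measured 56.6, 60.6 and 60.7 CPM in Neg EpiLCs and 93.1, 85.7 and 88.3 CPM in 3×KD EpiLCs, a log2 fold change of 0.59 ± 0.04 SE that only just exceeded the limit (adjusted p = 1.8e-08). It fell under the limit without Neg EpiLC library 1 (0.56), without 3×KD EpiLC library 1 (0.55) and with only the groups compared in the fit (0.57).

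*Tbx3* and *Klf5* differed between the lines in EpiLCs with an adjusted p under 0.01, in opposite directions and with sizes under the fold limit. *Tbx3* measured 25.9, 26.4 and 26.4 CPM in Neg EpiLCs and 34.6, 32.8 and 31.7 CPM in 3×KD EpiLCs (log2 fold change 0.33 ± 0.04 SE). *Klf5* measured 157, 153 and 166 CPM in Neg EpiLCs and 125, 117 and 117 CPM in 3×KD EpiLCs (−0.41 ± 0.04 SE). Its 3×KD libraries lay below all Neg libraries in both states. Of all genes tested, 23.8% did so in ESCs and 23.1% in EpiLCs, and the share doing so in both was not counted.

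The other 4 factors had overlapping groups in EpiLCs. *Klf2* measured 63.3, 66.2 and 64.7 CPM in Neg and 67.9, 63.9 and 68.6 CPM in 3×KD EpiLCs, with a 95% interval of the log2 fold change from −0.03 to 0.12. *Zfp42* measured 48.2, 47.4 and 48.2 CPM in Neg and 47.2, 48.1 and 53.7 CPM in 3×KD EpiLCs (interval −0.06 to 0.16; 0.07 with *Zfp42-ps1* summed). Both intervals lie above the log2 fold changes of the same genes in ESCs, and the difference between states was tested below. *Nr5a2* measured 4.25, 3.42 and 5.37 CPM in Neg and 3.91, 4.54 and 3.81 CPM in 3×KD EpiLCs (interval −0.40 to 0.21). *Prdm14* measured 1.42, 1.07 and 1.26 CPM in Neg and 1.18, 1.47 and 0.999 CPM in 3×KD EpiLCs, down to 16 reads in a library, and its interval, −0.59 to 0.50, covers its ESC value of −0.26.

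**Figure D4:**
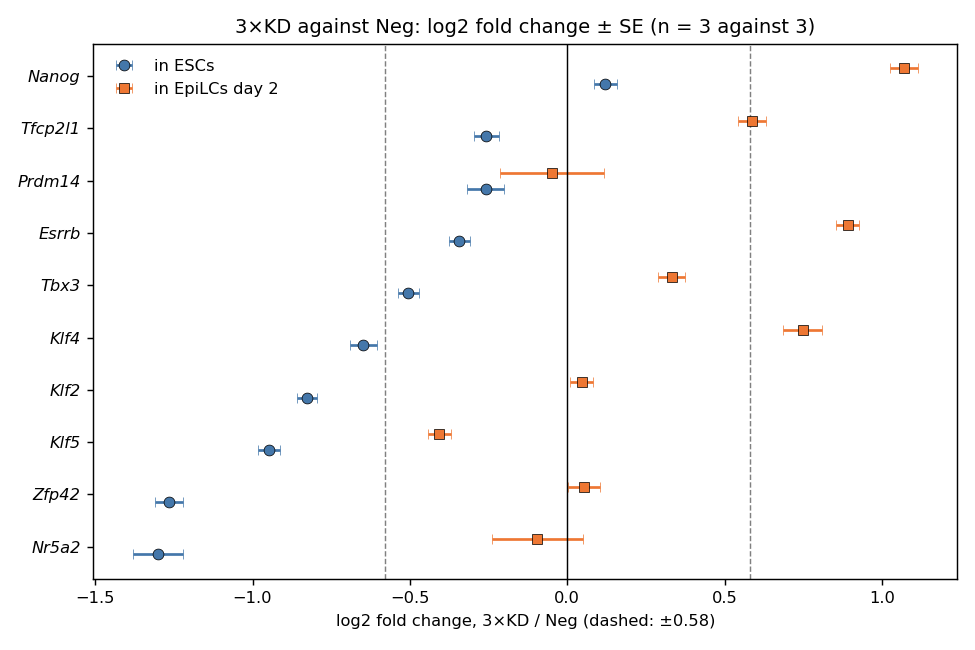
Log2 fold change of 3×KD against Neg for each naive factor in ESCs (circles) and in EpiLCs day 2 (squares), with SE bars (n = 3 against 3) and dashed lines at the fold limit of ±0.58. Each EpiLC value lies to the right of the ESC value of the same gene; *Nanog*, *Esrrb*, *Klf4* and *Tfcp2l1* pass the upper line in EpiLCs, and 5 genes pass the lower line in ESCs.

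Whether the effect of 3×KD depended on the state was tested as the interaction term of the same fit, called at an adjusted p under 0.01. It was positive and called for 9 of the 10 factors, beside 4.76% of all genes tested: *Klf4* (1.40 ± 0.07 SE on the log2 scale), *Zfp42* (1.32 ± 0.07 SE), *Esrrb* (1.23 ± 0.05 SE), *Nr5a2* (1.21 ± 0.17 SE), *Nanog* (0.95 ± 0.06 SE), *Klf2* (0.87 ± 0.05 SE), *Tfcp2l1* (0.84 ± 0.06 SE), *Tbx3* (0.84 ± 0.05 SE) and *Klf5* (0.54 ± 0.05 SE). *Prdm14* (0.21 ± 0.18 SE, adjusted p = 0.69) did not pass. For *Tbx3* the call was lost with transcript-length offsets (0.84, adjusted p = 0.094). With those offsets, 337 in place of 1211 of all genes tested had a positive called interaction.
The same positive sign came about in different ways. For *Nanog*, the ESC levels were close and the EpiLC level was higher in 3×KD. For *Klf4* the 3×KD line stood lower in ESCs and higher in EpiLCs, with both differences called, and for *Esrrb* and *Tfcp2l1* likewise with the ESC difference under the fold limit. For *Zfp42*, *Klf2* and *Nr5a2* the called difference lay in ESCs, and the lines overlapped in EpiLCs. *Klf5* was lower in 3×KD in both states, by less in EpiLCs.

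Which annotated transcripts carried the factors was read from shares of the gene's TPM. *Klf2* and *Prdm14* have 1 transcript in the annotation, and a single transcript held at least 97.8% of the TPM of *Klf5* and 99.2% of that of *Nanog* in every group mean. For *Tfcp2l1*, *Klf4* and *Zfp42* the leading transcript held at least 91.6%, 89.6% and 84.4%. The leading *Esrrb* transcript, ENSMUST00000110204, whose start closes the stretch printed above, held 87.5% ± 3.0 (SD, n = 3) in Neg EpiLCs and 78.8% ± 1.8 in 3×KD EpiLCs, with 82.6% ± 1.9 and 79.5% ± 1.9 in the ESC groups. *Tbx3* and *Nr5a2* were spread, each with 5 of 6 transcripts reaching 10% in some group. Of *Nr5a2*, ENSMUST00000027649 held 43.7% ± 4.1 and the shorter ENSMUST00000192929, which starts 6818 bases downstream of it, 49.3% ± 2.5 in Neg ESCs, and 35.2% ± 3.9 and 50.9% ± 0.7 in 3×KD ESCs. Estimates for transcripts that share exons are uncertain, and in EpiLCs the *Nr5a2* shares ranged between 0% and 62.8% among libraries.

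As neighbours in expression pattern, the 2 genes with the highest Pearson r of log2 CPM over the 12 libraries were taken for each factor, among 15032 genes averaging 1 CPM or more. All r lay between 0.997 and 1.00, since most of the variance is the step from ESCs to EpiLCs. They included *Stmn2* for *Nanog*, *Pdgfa* and *2510009E07Rik* for *Esrrb*, *Tead1* and *Fbrsl1* for *Klf2*, *Slc6a8* and *Renbp* for *Klf4*, *Kdm3b* and *Gna13* for *Klf5*, *2510009E07Rik* and *Gli2* for *Tfcp2l1*, *Ckb* and *Aqp3* for *Tbx3*, *C77080* and *Cox5a* for *Prdm14*, *Fbrsl1* and *Nfatc2ip* for *Nr5a2*, and *Sod2* and *Klf2* for *Zfp42*. *Stmn2* averaged 106 and 107 CPM in Neg and 3×KD ESCs and 28.3 and 36.8 CPM in Neg and 3×KD EpiLCs. The nearest to *Esrrb*, the growth factor gene *Pdgfa*, averaged 134 and 106 CPM in the ESC groups and 6.59 and 14.5 CPM in the EpiLC groups. *Zfp42* and *Klf2* were the only pair of the 10 in which one was among the nearest genes of the other.

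The signals that maintain the naive factors were described through lists of their own. Over all genes tested, 8.5% were called higher and 6.76% lower in 3×KD ESCs, and 7.88% higher and 5.35% lower in 3×KD EpiLCs. These shares belong beside each count of 3×KD against Neg in the lists below. Of 7 genes of the LIF arm, the receptor genes *Il6st* (log2 fold change −0.72 ± 0.05 SE) and *Lifr* (−0.63 ± 0.05 SE) fell in 3×KD ESCs, while the STAT3 feedback inhibitor *Socs3* (0.94 ± 0.06 SE) and the kinase gene *Pim3* (0.82 ± 0.04 SE) rose. In EpiLCs 4 of the 7 were higher in 3×KD, *Pim1* (1.34 ± 0.05 SE), *Socs3* (1.11 ± 0.07 SE), *Stat3* itself (0.79 ± 0.06 SE) and *Pim3* (0.60 ± 0.04 SE), and 0 were lower (1 at an unadjusted p under 0.05; 0 by DESeq2). *Stat3* measured 36.5, 35.6 and 33.4 CPM in Neg and 64.7, 59.6 and 58.7 CPM in 3×KD EpiLCs. In ESCs its means were 137 CPM in Neg and 146 CPM in 3×KD.

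Of 7 genes of the WNT arm, the β-catenin targets *Sp5* (log2 fold change −2.48 ± 0.14 SE) and *Axin2* (−0.94 ± 0.06 SE) and the factor gene *Lef1* (−0.63 ± 0.06 SE) fell in 3×KD ESCs and *Cdx1* (0.69 ± 0.13 SE) rose. In EpiLCs *Lef1* was lower (−1.37 ± 0.04 SE) and 0 were called higher (3 at an unadjusted p under 0.05; 0 by DESeq2). *Tcf7l1*, the repressor of *Esrrb*, was called in neither state. Its adjusted p was under 0.01 in both, but the sizes stayed under the fold limit (−0.28 ± 0.04 SE in ESCs and −0.55 ± 0.04 SE in EpiLCs).
Of 11 genes of the FGF-ERK arm, 4 fell in 3×KD ESCs and 1 rose, led by the feedback inhibitors *Spry4* (−1.81 ± 0.18 SE) and *Spry2* (−1.74 ± 0.06 SE) and by the receptor gene *Fgfr2* (1.55 ± 0.13 SE). *Spry4* was low in both ESC groups, with means of 1.83 CPM in Neg and 0.517 CPM in 3×KD. In EpiLCs 4 were lower, led by the immediate early gene *Egr1* (−1.44 ± 0.08 SE), the ligand gene *Fgf4* (−1.15 ± 0.03 SE) and *Spry2* (−0.80 ± 0.05 SE), and 1, the ERK phosphatase gene *Dusp6*, was higher (0.62 ± 0.06 SE).

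Of 11 genes that promote exit from the naive state, 5 were lower in 3×KD in each state (6.76% of all genes tested in ESCs and 5.35% in EpiLCs). None was called higher (0 in ESCs and 3 in EpiLCs at an unadjusted p under 0.05, and 0 by DESeq2 in both). The list shares *Otx2* with the formative markers, *Tcf7l1* with the WNT arm and *Etv5* with the FGF-ERK arm. *Foxd3*, which helps to shut down naive enhancers, was the most affected: 51.9, 51.5 and 53.4 CPM in Neg ESCs against 12.4, 10.1 and 10.6 CPM in 3×KD ESCs, and 90.2, 78.5 and 87.0 CPM in Neg EpiLCs against 15.1, 15.3 and 17.5 CPM in 3×KD EpiLCs. Its log2 fold changes were −2.24 ± 0.08 SE and −2.41 ± 0.07 SE. In ESCs *Otx2* was lower as well (−1.20 ± 0.23 SE), at low means of 1.48 CPM in Neg and 0.641 CPM in 3×KD. In EpiLCs *Tfe3* (−1.12 ± 0.05 SE) and *Zfp281* (−1.03 ± 0.03 SE) were lower.
Among 14 other naive markers, 3 were higher and 7 lower in 3×KD ESCs (8.5% and 6.76% of all genes tested). The largest changes were in *Gbx2* (−1.35 ± 0.11 SE), *Tdh* (−1.30 ± 0.04 SE) and *Spic* (−1.06 ± 0.17 SE). In EpiLCs 3 were higher, *Spp1* (1.31 ± 0.04 SE), *Dppa3* (1.28 ± 0.22 SE) and *Fbxo15* (0.97 ± 0.04 SE), and 2 were lower, *Nr0b1* (−0.84 ± 0.06 SE) and *Tdh* (−0.67 ± 0.08 SE). Of all genes tested, 7.88% were called higher and 5.35% lower in EpiLCs. *Dppa3* was low there, with means of 0.617 CPM in Neg and 1.51 CPM in 3×KD EpiLCs. Their medians, −0.55 in ESCs and 0.41 in EpiLCs, had the same signs as those of the 10 factors (−0.58 and 0.19). Summed CPM of the 14 went the other way in ESCs, with library medians of 2690 in Neg and 2829 in 3×KD. *Dppa5a* was among those higher in 3×KD ESCs (0.88 ± 0.04 SE). Not all of the 14 fell on leaving the naive state: *Dppa2* and *Dppa4* were called higher in Neg EpiLCs than in Neg ESCs, and 10 were called lower. Of the core factors *Pou5f1*, *Sox2* and *Sall4*, which serve the naive and the formative state alike, 0 were called in ESCs (2 lower at an unadjusted p under 0.05; 0 by DESeq2), and *Sall4* was lower in EpiLCs (−0.68 ± 0.04 SE). Of the 8 formative markers 6 were called lower in 3×KD EpiLCs (5.35% of all genes tested), and all 8 values lay between −1.83 and −0.42.

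**Figure D5:**
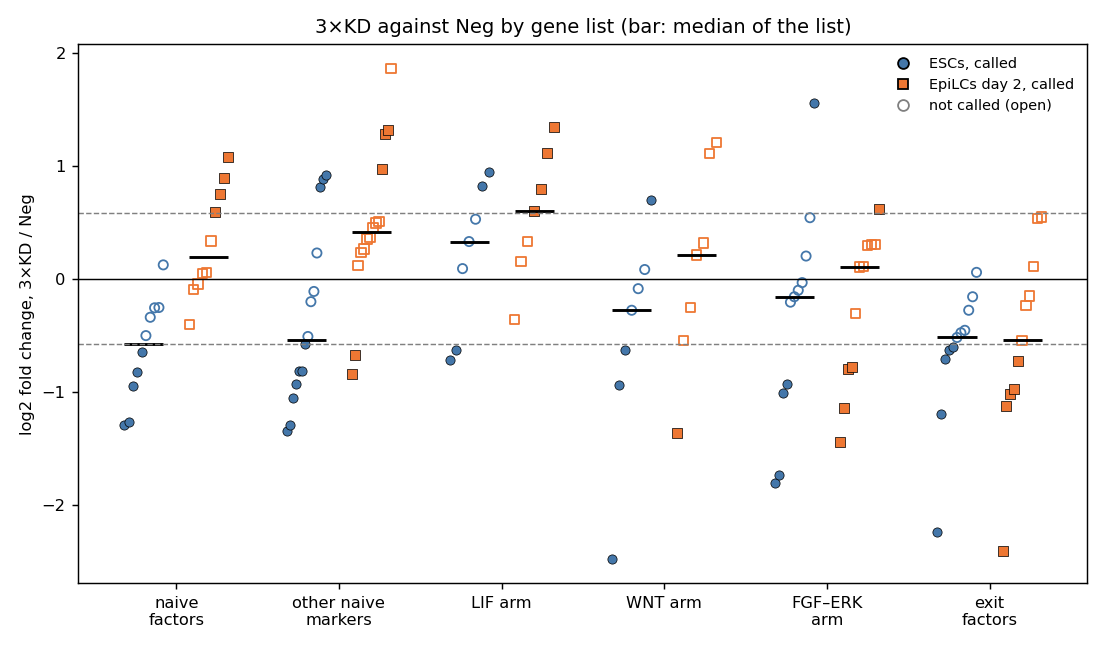
Log2 fold change of 3×KD against Neg for the genes of 6 lists in ESCs (circles) and EpiLCs day 2 (squares); filled symbols passed the test, open ones did not, bars are list medians and dashed lines the fold limit of ±0.58. The medians of the naive factors and of the other naive markers lie below 0 in ESCs and above 0 in EpiLCs, while that of the exit factors lies below 0 in both (−0.52 and −0.55).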

How the data were processed

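RNA-seq of 12 libraries was used, grouped by sample titles into 4 groups of 3. Per the study's methods and processing notes, libraries were rRNA-depleted, directional and single-end (the labels' molecule field says polyA RNA), reads were trimmed with Trim Galore 0.6.7, aligned to GRCm39 with STAR 2.7.9a and quantified with Salmon 1.10.1. The deposited files hold, per transcript, the authors' estimated counts, not normalized, and the authors' TPM, scaled by transcript length and library total.

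For each gene, the deposited estimated counts of its transcripts were added up and rounded (11221023 to 19652197 per library). Genes with at least 10 counts entered a fit with TMM factors in edgeR 4.0.16 (R 4.3.3, quasi-likelihood) over the 4 groups without a block. A call needed an adjusted p (Benjamini-Hochberg) under 0.01 and, for all but the interaction, a log2 fold change beyond ±0.58. The SE is the size of the log2 fold change divided by the square root of F. TPM served only for levels between genes and transcript shares. The fit was tested on simulated data, in which 200 genes above a minimum mean count were changed by 1 on the log2 scale. All other genes had equal means in the 4 groups, and the spread between libraries followed the mean level. Of the 200 changed genes, the fit recovered 77.5% for 3×KD against Neg in ESCs (24830 genes fitted) and 89% in EpiLCs (24857 genes). For the interaction it recovered 71.5% (24842 genes). These rates do not cover genes with few counts.

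The members and lists were chosen with earlier results of these data known. Some lists share genes, so that their counts are not independent of each other. Named genes are the 10 members, up to the 3 largest called genes of each list per comparison, the 2 nearest genes in pattern, transcripts reaching 10% of TPM, and the 3 targeted genes. *Lifr*, *Pim3* and *Dusp6* in EpiLCs or ESCs beyond that limit, *Lef1* in ESCs, *Tcf7l1* and *Zfp42-ps1* were named after their values were seen. So were *Dppa2*, *Dppa4*, *Dppa5a*, *Etv5*, *Eomes*, *Sox1*, *Tfap2c*, *Zscan4c*, *Zscan4d* and *Zscan4f*. Some genes that this rule names are not reported here. Alternatives were upper-quartile and RLE factors, no factors, DESeq2 1.42.0, filterByExpr or no filter, transcript-length offsets, robust estimation, a replicate block, fits of 2 groups, a looser threshold, and leaving out each library. Replicate libraries differed beyond sampling noise, and none was a duplicate.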

Additional observations from a re-analysis of the deposited data

Results flagged for a closer look

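For 9 of the 10 naive factors the 3×KD effect differed between the states by the interaction test (edgeR, adjusted p under 0.01): on the log2 scale, the effect in EpiLCs minus that in ESCs was 0.95 for *Nanog*, 1.23 for *Esrrb*, 0.87 for *Klf2*, 1.40 for *Klf4*, 0.54 for *Klf5*, 0.84 for *Tfcp2l1*, 0.84 for *Tbx3*, 1.21 for *Nr5a2* and 1.32 for *Zfp42*. All of them were positive. In 4 genes (*Esrrb*, *Klf4*, *Tfcp2l1* and *Tbx3*) every 3×KD library lay below every Neg library in ESCs and above every Neg library in EpiLCs, an arrangement that 1.74% of all genes tested had. Over all genes tested, 23.8% had every 3×KD library below in ESCs and 24.1% had every one above in EpiLCs. *Nanog*, for which both differences were positive, had the higher one in EpiLCs. Groups of 3 libraries are too small for a search for single deviating libraries.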

How the results depend on the processing

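The fall of all 10 factors from ESCs to EpiLCs in either line and of 5 factors in 3×KD ESCs was called under every normalization, filter, tool, block and left-out library tried, and no factor's called direction reversed. With an adjusted p under 0.05 and no fold limit, 1 factor (*Nanog*) was called higher and 9 were called lower in 3×KD ESCs in place of 0 and 5, and in 3×KD EpiLCs 5 were called higher in place of 4, with *Tbx3* added, and 1 (*Klf5*) was called lower in place of 0. Leaving out 1 library at a time, between 3 and 4 factors were called higher in 3×KD EpiLCs and 9 kept a positive interaction; the calls lost were those of *Tfcp2l1* (0.56 without Neg EpiLC library 1, 0.55 without 3×KD EpiLC library 1). *Tfcp2l1* in EpiLCs was also under the limit with only the groups compared (0.57), and *Klf4* in EpiLCs (0.57) and the interaction of *Tbx3* (0.84, adjusted p = 0.094) did not pass with transcript-length offsets; the cause was not tested. With those offsets the LIF arm had 1 in place of 2 genes higher and 1 in place of 2 lower in 3×KD ESCs, the WNT arm 0 in place of 1 higher in ESCs, the FGF-ERK arm 0 in place of 1 higher in EpiLCs, the other naive markers 4 in place of 7 lower in ESCs and 1 in place of 2 lower in EpiLCs, and 1330 in place of 2005 of all genes were higher in EpiLCs. The interaction moved more: over all genes, 337 in place of 1211 were called higher and 394 in place of 1342 lower. With library size alone, 2 exit factors were higher in EpiLCs in place of 0, and without 3×KD EpiLC library 2, 1 gene of the WNT arm was higher in EpiLCs in place of 0. Without a fold limit, counts over all genes rose from 2164 to 5109 higher and from 1721 to 5033 lower in ESCs, and from 2005 to 4835 higher and from 1362 to 4859 lower in EpiLCs; the exit factors went from 5 to 10 lower in ESCs and from 5 to 8 lower in EpiLCs, and the other naive markers from 3 to 10 higher in EpiLCs. Summing *Zfp42* with *Zfp42-ps1* changed no call of a factor.

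Replicate numbers did not pair the libraries: the deviations of same-numbered libraries from their group means correlated between −0.13 and 0.10 over 18 pairs, and 3 of 12 libraries correlated best with their own number. With the replicate number as a block, 5 factors were called lower in 3×KD ESCs and 4 higher in 3×KD EpiLCs, 10 fell in either line and 9 had a called interaction, as without it; over all genes, 2105 were higher and 1687 lower in ESCs.

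Depth limits *Prdm14* and *Nr5a2* in EpiLCs, with as few as 16 and 51 reads in a library. Of the list genes named, *Spry4* and *Otx2* in ESCs and *Dppa3* in EpiLCs were low too, with group means of at most 1.83 CPM.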
